A study of Mus musculus with 6 samples.

Results

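The 10 genes described here carry the MHC class I pathway: the heavy chains H2-K1 and H2-D1, the light chain B2m, the peptide transporter Tap1 and Tap2, tapasin (Tapbp), the immunoproteasome subunits Psmb8, Psmb9 and Psmb10, and the regulator Nlrc5. They were chosen by symbol from the 55254 genes of the count table, and the transcript with the most counts on average stood for each. All 10 were among the 11873 genes that passed the filter on low counts. Bone marrow derived macrophages (BMDMs) of C57BL/6J mice were grown for 10 days and treated with LPS, the bacterial ligand of TLR4, at 100 ng/ml for 4 hrs, and their RNA was sequenced from the 3′ ends with QuantSeq. Control BMDMs (hnRNPDfl/fl) carry floxed alleles of hnRNPD, the gene of the RNA-binding proteins AUF1, and M-Δx3,4 BMDMs (LysCre+hnRNPDfl/fl) carry the same alleles with a Cre driven by the lysozyme M gene, which removes exons 3 and 4 in myeloid cells. Each group had 3 libraries, all from LPS-treated cells, and untreated cells were not analysed here. The labels do not say whether the libraries of a group came from separate mice or cultures, and the p-values measure only the spread between these libraries.

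MHC class I molecules show peptides from inside the cell to CD8+ T cells. Proteins are cut by the proteasome, in which interferon and inflammatory signals exchange the constitutive catalytic subunits for the immunoproteasome subunits. The peptides are pumped into the endoplasmic reticulum by TAP and fitted, with the help of tapasin and chaperones, onto heavy chains that have bound the light chain. NLRC5, interferon regulatory factors and NF-κB drive transcription of these genes, and macrophages raise the pathway when they sense LPS. AUF1 proteins bind AU-rich elements in the 3′ UTRs of mRNAs and can speed or slow their decay, and the core of such an element is the pentamer ATTTA in DNA letters.

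Most 3′ UTRs of the class I genes were short and poor in that pentamer. They are shown first because AUF1 binds there and because the counted regions take in 3′ UTR sequence. Counting also ran past the annotated ends, with 668 bases counted against 419 of 3′ UTR in H2-K1 and 697 against 448 in B2m. The share of counts inside the 3′ UTRs was not measured. A region of 249 bases, wholly or almost wholly past the annotated 3′ UTR, had many of the counts in some genes. Its count over that of the region used was 0.812 to 0.957 for Tap2, 0.690 to 0.888 for Nlrc5 and 0.258 to 0.496 for Tap1. Whether those reads also reached into the 3′ UTR was not measured. In the coding transcript of each gene with the highest mean count, ATTTA was found on the transcribed strand in 3 of the 10 genes, against 68.3% of the 10009 tested genes that have an annotated coding 3′ UTR. The nonamer TTATTTATT was found in none of the 10 and in 7.58% of all. The median 3′ UTR of the 10 genes was 433.5 bases long, from 55 in Psmb10 and 77 in Psmb8 to 1141 in Tapbp and 1197 in Nlrc5, against 1111 bases over all genes, and a shorter 3′ UTR holds fewer pentamers whatever its sequence. B2m and Tap1 had 1 pentamer each and Nlrc5 had 3. They are printed as the annotated mm10 transcript reads, with the pentamer in capitals. The B2m stretch lies at chr2:122152699-122152723 on the plus strand, the Tap1 stretch at chr17:34196924-34196948 on the plus strand, and the Nlrc5 stretches start at 94526566, 94526689 and 94526810 on the plus strand of chromosome 8.
B2m: atgctatacaATTTAtgcacgcaga
Tap1: gatacccggaATTTAccacgaatgt
Nlrc5, first: ccaagacctaATTTAttattatttt
Nlrc5, middle: aatctaggtaATTTAgtaagatcct
Nlrc5, last: ttttttaagtATTTAtaagcacctt

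Short motifs in the promoters are shown here because LPS signals through NF-κB and interferon regulatory factors. RefSeq promoter windows (GRCm38.p6, 250 bases before to 50 bases after the start) were matched by symbol for 8 of the 10 genes, all except Tap2 and Nlrc5. Searched on both strands, the NF-κB-like letters GGGATTCCC were found in H2-K1 and H2-D1 and in 0.353% of the 32851 promoter windows. The interferon-response-like letters GAANNGAAA, which read TTTCNNTTC on the other strand, were also found in H2-K1 and H2-D1 and in 7.52% of all windows. The form GAAANNGAA was found in B2m and in 8.56% of all windows. CCAAT was found in 6 of the 8 genes (H2-K1, H2-D1, B2m, Tap1, Tapbp and Psmb9) and in 37.4% of all windows, and the matches of Tap1 and Psmb9 are 1 site in a window they share. Psmb8 and Psmb10 held none of these motifs in this exact form. Other forms were not searched, and the motifs were chosen after the values were seen. The motifs do not overlap each other in these windows, and a match is a run of letters, not a measured binding site. The stretches of H2-K1 lie on the minus strand of chromosome 17, at 34000440 to 34000466 and 34000420 to 34000446. Those of H2-D1 lie on the plus strand of chromosome 17, at 35262915 to 35262941 and 35262935 to 35262961, and that of B2m at chr2:122147539-122147565 on the plus strand. Capitals mark the motif.
H2-K1, NF-κB-like: ccagggctgGGGATTCCCcatctccac
H2-D1, NF-κB-like: ccagggctgGGGATTCCCcatctcctc
H2-K1, interferon-response-like: tctccacagTTTCACTTCtgcacctaa
H2-D1, interferon-response-like: tctcctcagTTTCACTTCtgcacctaa
B2m, interferon-response-like: taagaacatGAAACTGAAaatgggaaa
Tap1 and Psmb9 are transcribed away from each other from start sites 226 bases apart on chromosome 17 (34187556 and 34187330), so their promoter windows overlap by 275 bases.

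To ask whether loss of AUF1 in LPS-treated macrophages moved these mRNAs, M-Δx3,4 was compared with control BMDMs. None of the 10 genes passed the test of a difference between the groups. In edgeR's quasi-likelihood test 0 of 10 reached an unadjusted p under 0.05, where 3.98% of all genes tested and 4.13% of all transcripts did, and 3.3% of all transcripts when a log2 fold change of at least 1 in absolute value was also asked. DESeq2 and limma-voom also gave 0 of 10, where 1016 and 1100 of all 32475 transcripts reached that p. The libraries of both groups overlapped for all 10 genes, while 8.44% of all genes had groups that did not overlap. Of the 10 log2 fold changes 8 were below 0, where 50.5% of all genes were, and they ran from -0.47 (H2-D1) to 0.08 (Psmb8) with a median of -0.06, against -0.01 over all genes. All 10 were under 0.5 in absolute value, as were 81.4% of the genes with a mean of at least 50 normalized counts, a class all 10 belong to. Counts were normalized by the median of ratios, and a log2 fold change is M-Δx3,4 over control. The adjusted p-values of the 10 genes in this fit were between 0.984 and 0.999.

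**Figure D1:**
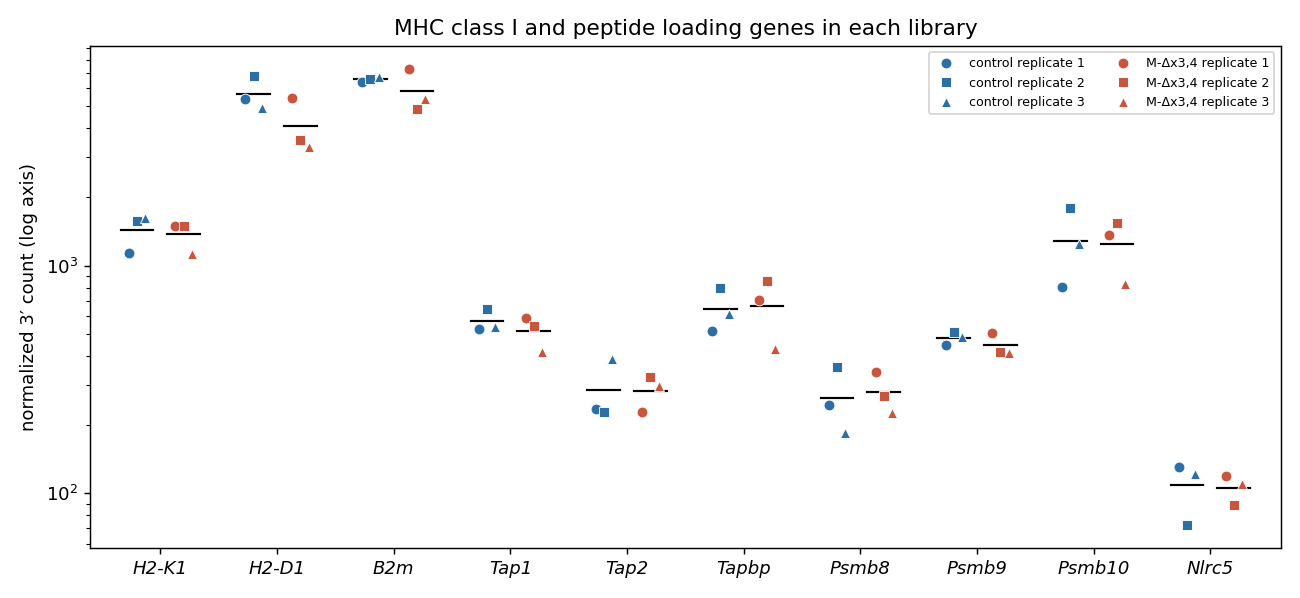
Normalized 3′ counts (log axis) of the 10 genes in the 3 control and 3 M-Δx3,4 libraries, each point 1 library and each line a group mean. The groups overlap for every gene, and the means of H2-D1 lie farthest apart (5682 against 4104).

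The targeted gene was lower in the M-Δx3,4 libraries. The Hnrnpd transcript ENSMUST00000072750 had 177.8, 104.2 and 69.6 normalized counts in control and 52.8, 12.6 and 16.0 in M-Δx3,4 BMDMs, for a log2 fold change of -2.11 (SE 0.54, adjusted p = 0.984 in edgeR's quasi-likelihood test). The groups did not overlap, but 3′ counts do not show exons 3 and 4. Summed over all transcripts the libraries held 5852374 to 9008878 counts, and 2503125 to 3846215 with 1 transcript per gene, of which the 10 genes took 0.426% to 0.660%. All 8 macrophage markers were detected, 3 with a log2 fold change above 0 (Adgre1 0.25, Itgam 0.41 and Mertk 0.56) and 5 below. Of these only Lyz2, the gene that holds the Cre in LysMCre mice, reached an unadjusted p under 0.05 by edgeR (log2 fold change -0.91, adjusted p = 0.984), and it was lower in M-Δx3,4 BMDMs, as were 2.53% of all genes by the same threshold. The summed counts of 6 B cell markers were 299.9 to 358.5 in control and 141.8 to 164.3 in M-Δx3,4 BMDMs, mostly Igkc. Of the 4 tested, 2 had a log2 fold change below 0 (Igkc -1.56 and Ighm -0.70) and 2 above, among them Cd79b (0.39). The summed counts of 7 neutrophil and precursor markers were 377.0 to 688.1 in control and 472.3 to 709.8 in M-Δx3,4 BMDMs, with Elane at 0 in every library. Markers of T or NK cells (Cd3e, Cd3g, Ncr1 and Klrb1c) were at 0 in every library, those of dendritic cells summed to at most 10.2 and those of fibroblasts to at most 34.9. The part of these markers in the values below was not tested.

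The heavy chains present the peptide, and H2-D1 was the member with the widest difference between the group means. H2-D1 (ENSMUST00000172503, counted over chr17:35266771-35267602, plus strand) had 5366, 6777 and 4902 normalized counts in control and 5441, 3571 and 3301 in M-Δx3,4 BMDMs. Replicates 2 and 3 of M-Δx3,4 lay under every control library, and replicate 1 lay inside the control range. The group values were 5682 ± 977 and 4104 ± 1165 (SD, n = 3 each), a log2 fold change of -0.47 with a standard error of 0.30 and a 95% interval of -1.11 to 0.18. The exact permutation test, two-sided, gave p = 0.3, and 3 libraries against 3 cannot go below 0.1. Without M-Δx3,4 replicate 1 the log2 fold change was -0.73 and without control replicate 2 it was -0.32, so these libraries set much of its size. No alternative fit brought its unadjusted p under 0.05 (the smallest was 0.0527 in the edgeR fit without control replicates 1 and 3).

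H2-K1 (ENSMUST00000025181, chr17:33995804-33996471, minus strand) had 1132, 1567 and 1610 normalized counts in control and 1495, 1494 and 1118 in M-Δx3,4 BMDMs. The low libraries were control replicate 1 and M-Δx3,4 replicate 3, and the other 4 lay close together. The log2 fold change was -0.07 (SE 0.30, 95% interval -0.71 to 0.57). Within a library, where no scaling enters, the ratio of H2-K1 to H2-D1 counts was 0.211, 0.231 and 0.329 in control and 0.275, 0.419 and 0.339 in M-Δx3,4 BMDMs. The highest control ratio lay above the lowest M-Δx3,4 ratio, and the mean log2 ratio was 0.43 higher in M-Δx3,4 BMDMs (exact permutation test, two-sided, p = 0.2, adjusted p = 1 over 5 ratios).

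Heavy chain genes are near copies of each other, so the sequence they share was counted. The 3′ UTRs of H2-K1 (419 bases) and H2-D1 (629 bases) were 88.1% identical over 311 aligned positions, and their longest shared run was 51 bases. Of the 370 windows of 50 bases in the H2-K1 3′ UTR, 2 occurred in a transcript of another gene, H2-D1. Of the 580 in H2-D1, 2 occurred in another heavy chain gene and 43 (7.41%) in any other gene, among them AC132307.5, Adsl and Kcnk4. How the study's aligner treated reads from shared windows is not given in the sources used here, and the counts are uncertain to that extent. No window of 50 bases in the 3′ UTRs of B2m, Tap1, Tap2, Psmb8, Psmb9, Psmb10 or Nlrc5 occurred in another gene, and 5.22% of those of Tapbp did. Psmb8 and Psmb10 had only 28 and 6 windows. All windows lay in annotated 3′ UTRs, and sequence shared in the counted bases past their ends was not examined.

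B2m, the light chain of every class I molecule, was the most abundant of the 10 mRNAs. It had 6384, 6581 and 6747 normalized counts in control and 7319, 4861 and 5374 in M-Δx3,4 BMDMs. The control libraries lay close together (6571 ± 182, SD, n = 3), and the M-Δx3,4 libraries lay on both sides of them (5851 ± 1296, SD, n = 3). The log2 fold change was -0.17 (SE 0.28, 95% interval -0.77 to 0.43). B2m was the reference transcript of the study's qRT-PCR, and the interval gives the range of B2m differences that these libraries allow. Its transcript (ENSMUST00000102476) was counted over chr2:122152651-122153332 and a short segment of 15 bases upstream, which took 3.32% to 6.54% of its counts.

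Tap1 and Tap2 form the transporter that carries peptides into the endoplasmic reticulum, and tapasin holds the empty heavy chain beside it. Tap1 (ENSMUST00000041633, chr17:34196775-34197468, plus strand) had 526.5, 645.7 and 538.3 normalized counts in control and 588.9, 543.8 and 417.3 in M-Δx3,4 BMDMs, for a log2 fold change of -0.14 (SE 0.30). Tap2 (ENSMUST00000025197, chr17:34216094-34216570, plus strand) had 234.8, 226.8 and 388.7 in control and 226.9, 323.4 and 295.7 in M-Δx3,4 BMDMs, for a log2 fold change of -0.01 (SE 0.34). Control replicate 3 was the highest library for Tap2, and its sign turned without that library (0.30). Tapbp (ENSMUST00000025161, chr17:33928152-33929541, plus strand) had 517.2, 795.9 and 614.9 in control and 706.2, 854.5 and 428.7 in M-Δx3,4 BMDMs, for a log2 fold change of 0.04 (SE 0.34). Both the highest and the lowest library of Tapbp were M-Δx3,4 libraries.

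The transporter chains act as a pair, so their ratio was taken within each library. Tap1 counts were 2.24, 2.84 and 1.38 times those of Tap2 in control and 2.59, 1.68 and 1.41 times in M-Δx3,4 BMDMs. The ratio varied more between libraries of 1 group than between the groups (difference of the mean log2 ratios -0.17, exact permutation test, two-sided, p = 0.8).

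The immunoproteasome subunits replace constitutive ones at the catalytic sites and favour the peptide ends that class I molecules bind. Psmb8 (ENSMUST00000173441, chr17:34201206-34201454, plus strand) had 244.1, 357.6 and 184.5 normalized counts in control and 341.4, 267.0 and 224.7 in M-Δx3,4 BMDMs, for a log2 fold change of 0.08 (SE 0.35). Psmb9 (ENSMUST00000237228, in 4 segments from 34181792 to 34184259 on the minus strand of chromosome 17) had 446.3, 511.9 and 486.1 in control and 506.7, 415.6 and 414.2 in M-Δx3,4 BMDMs, for a log2 fold change of -0.11 (SE 0.30). Psmb10 (ENSMUST00000212595, chr8:105935765-105936013, minus strand) had 807.8, 1793 and 1237 in control and 1360, 1537 and 830.7 in M-Δx3,4 BMDMs, for a log2 fold change of -0.04 (SE 0.36). Psmb9 was the steadiest of the 10 mRNAs, with a coefficient of variation of 9.52% over the 6 libraries, and 1.27% of the 4723 genes with a mean of at least 50 had a lower one. Those genes were not matched to Psmb9 for level. Psmb10 was the most variable (30.9%), with control replicate 1 and M-Δx3,4 replicate 3 low. The transcripts with the highest count of Psmb9 and Psmb10 are annotated as a target of nonsense-mediated decay and as a retained intron. Their counted regions overlap those of coding transcripts, for which the log2 fold changes were -0.11 (ENSMUST00000171321) and -0.06 (ENSMUST00000034369). In Psmb10 the region used meets the coding one (chr8:105935490-105935793) only at its end, so its level is mostly that of another stretch. Shared reads were not measured.

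To follow the exchange of subunits, each was divided by the constitutive subunit whose place it takes. The ratio of Psmb8 to Psmb5 counts was 2.79, 2.93 and 1.26 in control and 4.69, 3.30 and 2.29 in M-Δx3,4 BMDMs. The ratio of Psmb9 to Psmb6 was 2.34, 1.33 and 1.13 in control and 1.75, 1.47 and 1.81 in M-Δx3,4 BMDMs. The ratio of Psmb10 to Psmb7 was 2.88, 8.34 and 7.54 in control and 6.14, 6.48 and 5.07 in M-Δx3,4 BMDMs. The groups overlapped in all 3 ratios. The mean log2 ratio was 0.59 higher in M-Δx3,4 BMDMs for Psmb8 to Psmb5 (exact permutation test, two-sided, p = 0.4), 0.14 higher for Psmb9 to Psmb6 (p = 0.7) and 0.05 higher for Psmb10 to Psmb7 (p = 1), and the adjusted p over the 5 ratios was 1 for each. The denominators had log2 fold changes of -0.50 for Psmb5, -0.33 for Psmb6 and -0.08 for Psmb7, none past an unadjusted p of 0.05 in edgeR's quasi-likelihood test.

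**Figure D2:**
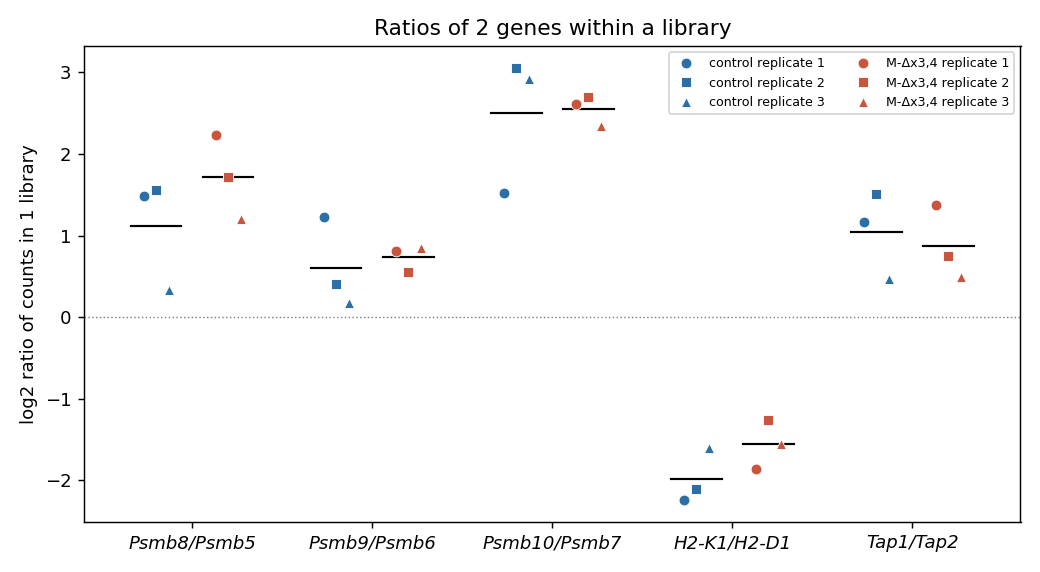
Log2 ratio of the counts of 2 genes in the same library, with 1 point per library and a line at each group mean. The widest gap between the means is that of Psmb8 to Psmb5 (0.59), and the groups overlap in all 5 ratios.

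Nlrc5, the transactivator of class I promoters, had the lowest counts of the 10 genes. Its transcript (ENSMUST00000053085, chr8:94526076-94527521, plus strand) had 130.2, 72.5 and 121.8 normalized counts in control and 118.4, 88.4 and 109.3 in M-Δx3,4 BMDMs. Replicate 2 was the lowest library in both groups. The log2 fold change was -0.04 (SE 0.37, 95% interval -0.82 to 0.74), and the interval runs from 0.568 to 1.67 times the control level.

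The standard errors of the 10 log2 fold changes ran from 0.28 (B2m) to 0.37 (Nlrc5). The 95% interval of the log2 fold change lay between -1 and 1 for 9 of the 10 genes, all except H2-D1, against 40.1% of the genes with a mean of at least 50. Those genes were not matched to the 10 for level, and their median standard error was 0.37 against 0.32. A p above the threshold does not show equal levels, and with 3 libraries a group a change of any size within its interval remains possible for each gene. Per kilobase of counted region, mean levels were 8911 normalized counts for B2m, 5881 for H2-D1, 5064 for Psmb10, 2100 for H2-K1, 1084 for Psmb8, 783 for Tap1, 593 for Tap2, 495 for Psmb9, 470 for Tapbp and 73.8 for Nlrc5. QuantSeq reads gather at the 3′ end, so such a level also depends on the length of the counted region.

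**Figure D3:**
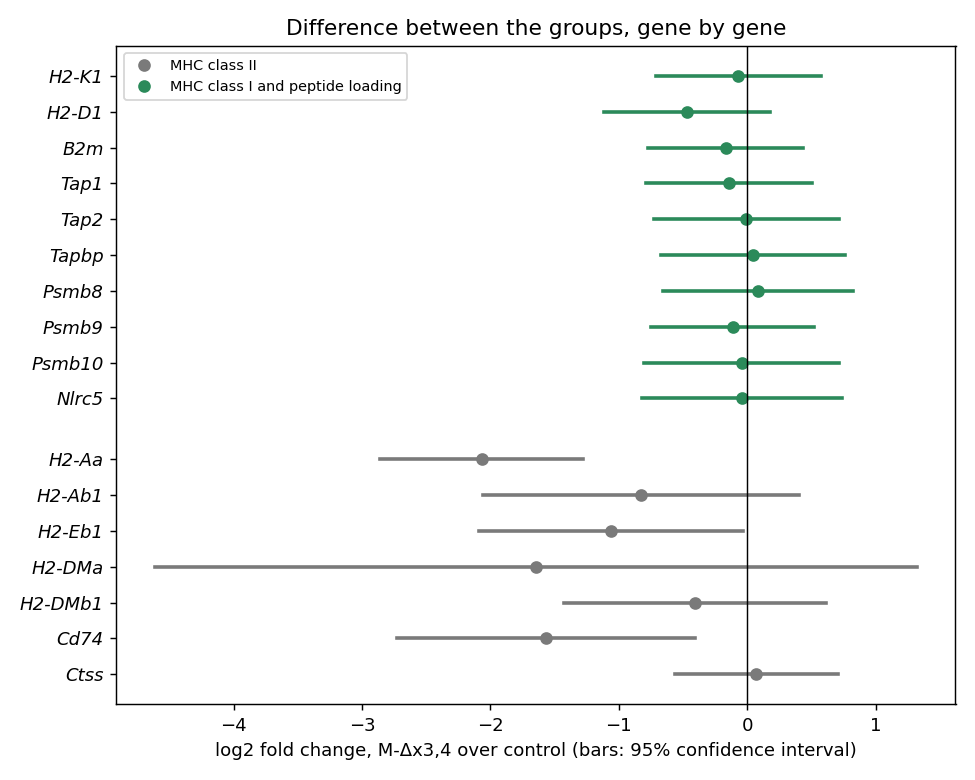
Log2 fold change of M-Δx3,4 over control with its 95% confidence interval from edgeR, for the 10 class I and peptide loading genes (green) and the 7 tested MHC class II genes (grey). All 10 green intervals include 0, and H2-Aa (-2.07) lies farthest from it.

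The class I genes varied between libraries of the same group. M-Δx3,4 replicate 3, the deepest library, was the lowest for 5 of the 10 genes (H2-K1, H2-D1, Tap1, Tapbp and Psmb9), and control replicate 2 was the highest for 5 (H2-D1, Tap1, Psmb8, Psmb9 and Psmb10). The mean deviation of the 10 genes from their own means, on the log2 scale, was -0.11 in control replicate 1, 0.17 in 2 and 0.07 in 3, against 0.14, 0.00 and -0.27 for replicates 1 to 3 of M-Δx3,4. Tap1, H2-K1 and Psmb9 followed the mean of the other 9 genes most closely over the 6 libraries (Pearson r 0.94, 0.84 and 0.82), and Tap2 and Nlrc5 ran against it (-0.39 and -0.52). These correlations rest on 6 libraries that share their scaling and are given as a description. Of 4713 other genes with a mean of at least 50, the 5 most like the mean profile of the 10 were Gm7613 (r = 0.987), A430005L14Rik (0.970), AL928616.1 (0.970), Prkaca (0.967) and Cope (0.967).

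**Figure D4:**
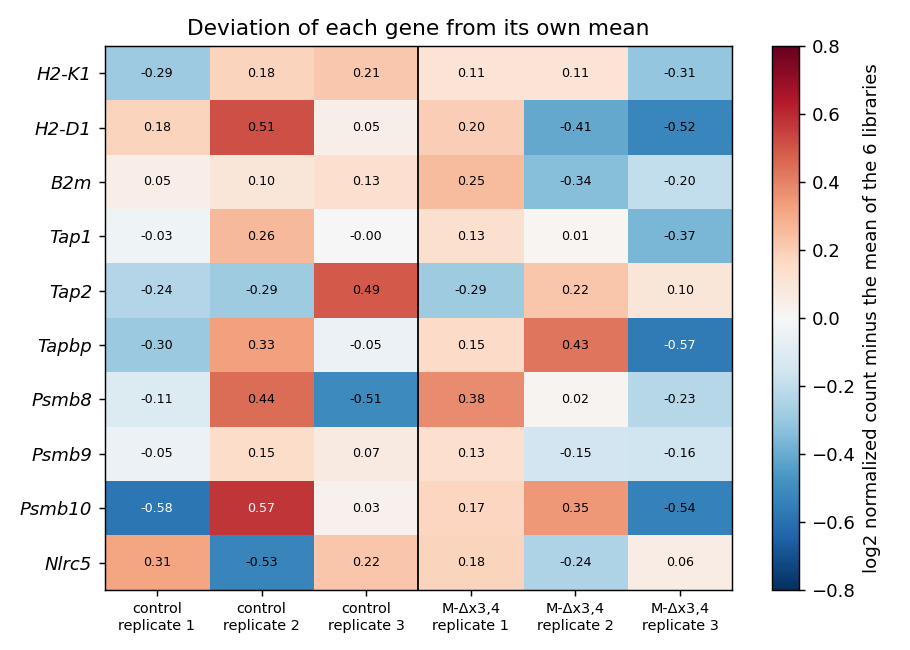
Deviation of each gene from its own mean over the 6 libraries, in log2 normalized counts (red above, blue below), with control libraries left of the line. M-Δx3,4 replicate 3 is below the mean for 8 of the 10 genes, and the range over all cells is -0.58 to 0.57.

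Most of these genes had several counted 3′ regions, and none of these passed the threshold. Of the 71 listed transcripts of the 10 genes 49 passed the filter, with 38 different sets of counts, and 0 reached an unadjusted p under 0.05 by edgeR, DESeq2 or limma-voom. Of all 32475 transcripts 1340 (4.13%) did by edgeR, 1016 by DESeq2 and 1100 by limma-voom, so few of 49 would be called at those shares. The log2 fold changes of the transcripts ran from -0.17 to 0.06 for H2-K1, from -0.22 to 0.16 for Tap1, from -0.01 to 0.05 for Tap2, from 0.04 to 2.12 for Tapbp, from 0.06 to 0.10 for Psmb8, from -0.15 to -0.11 for Psmb9, from -0.06 to 0.25 for Psmb10 and from -0.88 to 0.10 for Nlrc5. The 2 transcripts tested of H2-D1 had the same counts, and B2m had 1 transcript. The smallest unadjusted p of any transcript belonged to Tapbp, with a log2 fold change of 2.12, 15.7 normalized counts in M-Δx3,4 replicate 1 and at most 4.09 in any other library (adjusted p = 0.984 in edgeR's quasi-likelihood test).

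For 7 of the 10 genes a transcript counted over a region of 249 bases near the 3′ end was also listed, and its count was divided by that of the region used for the gene. Where there were several such regions, the one that ends farthest in the 3′ direction was taken. It lay wholly inside the region used for Tap2 and Nlrc5, with 214, 243 and 238 bases inside it for H2-K1, Tap1 and Psmb9, 4 for Psmb8 and 0 for Psmb10. In each of the 7 genes it lay wholly or almost wholly past the annotated 3′ UTR of the coding transcript described above. The ratio therefore does not measure coverage inside the annotated 3′ UTR. For Tap1 this ratio was 0.258, 0.460 and 0.407 in control and 0.442, 0.496 and 0.474 in M-Δx3,4 BMDMs. Control replicate 1 was the lowest of the 6 libraries for Tap1, H2-K1, Tap2 and Psmb9, M-Δx3,4 replicate 3 for Psmb8 and Psmb10, and control replicate 2 for Nlrc5. For Nlrc5 the ratio was 0.714, 0.690 and 0.762 in control and 0.711, 0.813 and 0.888 in M-Δx3,4 BMDMs, with overlapping groups. Over the 7 genes the exact permutation test, two-sided, gave p-values from 0.2 to 1 and adjusted p-values of at least 0.817.

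**Figure D5:**
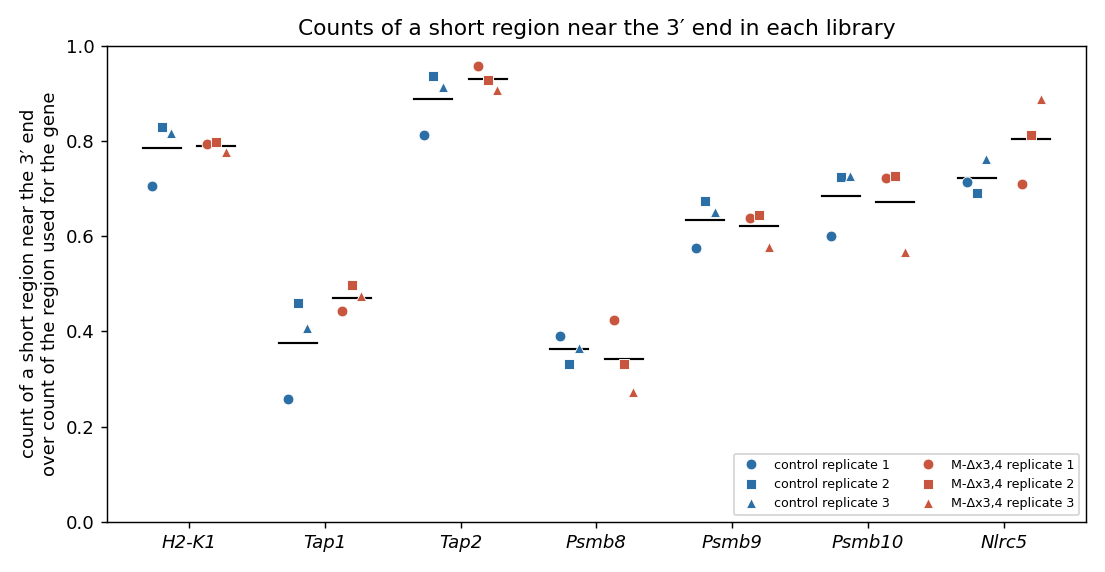
Count of a region of 249 bases near the 3′ end over the count of the region used for the gene, for the 7 genes that have both, with 1 point per library and lines at the group means. These regions lie wholly or almost wholly past the annotated 3′ UTRs. The groups overlap for every gene, and the lowest Tap1 value (0.258) is that of control replicate 1.

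The genes around the pathway were described by 5 lists. Among other class I heavy chains and B2m partners, 13 of 17 were tested, 0 reached an unadjusted p under 0.05 by edgeR, DESeq2 or limma-voom, and the median log2 fold change was -0.22. The most abundant were H2-T23 (-0.32), H2-T22 (-0.21) and the Fc receptor Fcgrt (-0.26). The groups did not overlap for 1 of the 13, against 8.44% of all genes. It was H2-M3, which presents formylated bacterial peptides (-0.72, adjusted p = 0.984 in edgeR's quasi-likelihood test). Among 18 chaperones and trimming peptidases, 1 was higher and 1 lower at an unadjusted p under 0.05, where 1.45% and 2.53% of all genes were. They were the peptidase Npepps (log2 fold change 0.91) and the chaperone calreticulin (Calr, -0.70), part of the loading complex, each with an adjusted p of 0.984 in edgeR's quasi-likelihood test, and limma-voom gave 1 higher and 0 lower. Hspa5 (0.04) and Sec61b (-0.23) were the other abundant members.

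Among 7 constitutive subunits, activators and assembly factors, 0 passed that threshold by edgeR, DESeq2 or limma-voom, with a median log2 fold change of -0.08. Pomp, which assembles the proteasome, was at 0.00, the activator Psme2 at 0.01 and Psme1 at -0.42. Among 15 transcriptional regulators, 0 passed it by these tools, with a median of -0.07. Irf1, an interferon regulatory factor that acts on class I and immunoproteasome promoters, had 2492, 3015 and 3002 normalized counts in control and 1889, 2323 and 2113 in M-Δx3,4 BMDMs. Every M-Δx3,4 library of Irf1 was under every control library, as for Stat2 (-0.51), while Rfxap (0.76) had every M-Δx3,4 library above, so that 3 of the 15 did not overlap, against 8.44% of all genes. Rfxap had few counts, with 10.5, 11.2 and 2.32 in control and 12.7, 14.6 and 13.8 in M-Δx3,4 BMDMs. The Irf1 log2 fold change was -0.43 (SE 0.28, adjusted p = 0.984 in edgeR's quasi-likelihood test). Irf8 was at -0.35 and Nfkb1 at -0.23.

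MHC class II genes, which load peptides from outside the cell, are given beside them because they are the most similar pathway. Of 9 listed, 7 were tested, and 3 reached an unadjusted p under 0.05 by edgeR (2 by DESeq2 and 2 by limma-voom), all lower in M-Δx3,4 BMDMs, as were 2.53% of all genes by edgeR: H2-Aa (-2.07), H2-Eb1 (-1.06) and the invariant chain Cd74 (-1.57). The adjusted p was 0.824 for H2-Aa and 0.984 for the other two in edgeR's quasi-likelihood test. Ctss was the most abundant of the 7, with a mean of 2341 normalized counts. Its log2 fold change of 0.07 was the only one above 0. The means of the other tested genes ran from 2.52 to 129 normalized counts. The median log2 fold change of the 7 was -1.06, the value of H2-Eb1 (mean 28.2), and that of the 10 class I genes -0.06. Whether the lists differ was not tested. In the same libraries the sum of the B cell markers was lower, mostly through Igkc, while single markers went both ways, as given above.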

How the data were processed

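RNA of 3 control and 3 M-Δx3,4 BMDM libraries was sequenced with QuantSeq on an Ion Torrent instrument. The authors mapped the reads to mm10 (the submitters' notes name TopHat2 2.1.1 and Bowtie2 2.3.2) and deposited raw counts per 3′ UTR region, which metaseqR2 had extended. A second table, with 24 rescaled columns per sample and the authors' own comparisons, was not used. Here the counts of the regions of a transcript were summed, normalized by the median of ratios and filtered to transcripts above the median normalized count (4.89) in at least 1 library. The groups were compared in edgeR 4.0.16 (quasi-likelihood test, Benjamini-Hochberg adjustment over all 32475 transcripts), which was tested on simulated data. DESeq2 1.42.0 and limma 3.58.1 were alternatives. The study's methods combined the p-values of several tests. Ratios within a library used a pseudocount of 0.5 and the exact permutation test (scipy 1.17.1), with adjustment over 5 ratios. Intervals are at 95%. Named genes were the 10 members, Hnrnpd, and, of each list, genes with an unadjusted p under 0.05 and the 3 most abundant. H2-M3, Psme1, Stat2, Rfxap, Mertk and Elane were also named, from those lists, after their values were seen, as were the motifs searched. The members and lists were chosen with earlier results of these data known. Nrdc was matched by its older symbol Nrd1.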

Additional observations from a re-analysis of the deposited data

How the results depend on the processing

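The number of the 10 genes with an unadjusted p under 0.05 was 0 under every alternative tried, including each fit without 1 library. The transcripts past the threshold (unadjusted p under 0.05 and absolute log2 fold change of at least 1) were 1071 in the edgeR fit, 696 in DESeq2, 1715 with no filter, 471 with filterByExpr, 265 with at least 10 counts in every library, 363 with 1 transcript per gene and 213 at a threshold of 0.01. Leaving out control replicate 3 gave the fewest (710) and leaving out control replicate 1 the most (3224). The labels do not say whether libraries of the 2 groups were paired, and the replicate numbers did not follow the closest correlations in every case. Correlations of same-numbered libraries were -0.22, 0.55 and -0.27 over 4723 genes. Among same-numbered libraries, only the replicates numbered 2 correlated best with each other. Control replicate 1 and replicate 3 of the other group also did (0.51). So did control replicate 3 and replicate 1 of the other group (0.29). With the replicate block, which follows the replicate numbers, the count was 685 and 0 of the 10 genes passed. A block in the other order was not tested.

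Signs of values near 0 turned. Tap2 (-0.01) was 0.00877 with TMM, 0.0124 with library totals, 0.0252 with limma-voom and 0.0213 with the replicate block, and Nlrc5 (-0.04) was 0.0030 with limma-voom. Leaving out each library in turn gave ranges of -0.21 to 0.0567 for H2-K1, -0.14 to 0.30 for Tap2, -0.18 to 0.28 for Tapbp, -0.11 to 0.37 for Psmb8, -0.29 to 0.28 for Psmb10 and -0.26 to 0.12 for Nlrc5. H2-D1 (-0.73 to -0.32), B2m (-0.36 to -0.05), Tap1 (-0.25 to -0.01) and Psmb9 (-0.22 to -0.06) kept their sign in these fits. Of the mean log2 ratios, Psmb9 to Psmb6 ranged from -0.0792 to 0.45, Psmb10 to Psmb7 from -0.44 to 0.33 and Tap1 to Tap2 from -0.46 to 0.0567, while Psmb8 to Psmb5 (0.20 to 0.85) and H2-K1 to H2-D1 (0.27 to 0.62) kept their sign. Without control replicates 1 and 3, a fit added after seeing the data, the 1 remaining control library is assumed to vary like the others, and Tap2 was 0.32, Tapbp -0.26, Psmb8 -0.36 and Nlrc5 0.54. The causes were not tested.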
